A study of Rattus norvegicus with 34 samples.

Results

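The 9 genes described here carry the signal of noradrenaline and adrenaline into heart muscle cells: the receptors Adra1a, Adra1b, Adrb1 and Adrb3, the adenylyl cyclases Adcy5 and Adcy6, the receptor kinase Grk5, and the phosphodiesterases Pde3a and Pde4d. They were taken by gene symbol as members of the pathway, and each had 1 of the 29214 transcript clusters on the Affymetrix Rat Gene 1.0 ST array. A transcript cluster is the group of probes that reads 1 transcribed locus. All rats were male Wistar rats studied 2 months after surgery. In rats with myocardial infarction (MI) the proximal left coronary artery was tied off, and sham-operated rats had the same operation without the tie. Left ventricle (LV) arrays came from 6 sham rats and from rats with a small (S-MI, n = 6), moderate (M-MI, n = 6) or large (L-MI, n = 5) infarct, and arrays of peripheral blood mononuclear cells (PBMCs, the lymphocytes and monocytes of blood) came from 5 L-MI and 6 sham rats. Infarct size was estimated from wall motion on echocardiography, so the 3 infarct groups are classes of a measured size and not separate treatments. LV samples of infarcted rats were the part without visible scar, whereas the whole LV was taken from sham rats, so infarct and dissection cannot be told apart. The descriptions of L-MI replicate 1, in both tissues, speak of compensated injury, against its title and its stated infarct size. Values without it are therefore also given for Adra1b and Grk5 in the LV and for Grk5 and Pde3a in PBMCs.

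Noradrenaline from sympathetic nerves and adrenaline from blood bind adrenergic receptors on heart muscle cells. Beta receptors, chiefly Adrb1, act through the stimulatory G protein on adenylyl cyclase, which makes cyclic AMP, and cyclic AMP opens certain channels and activates protein kinase A, which raises the force and rate of contraction. Alpha-1 receptors, Adra1a and Adra1b, act instead through a G protein of the Gq class and phospholipase C, and are linked to growth of the muscle cell. G protein-coupled receptor kinases such as Grk5 phosphorylate occupied receptors so that arrestins bind and the signal is switched off, and phosphodiesterases break down cyclic AMP close to where it is made. In heart failure the sympathetic drive is high for a long time, and loss of responsiveness of this pathway is a well-known feature of the failing heart.

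Cardiomyocyte markers were bright in LV arrays and, except for Ckm at a mean log2 signal of 7.60, dim in PBMC arrays. Tnnt2 had a mean log2 signal of 13.41 in LV and 6.59 in PBMCs. The T cell marker Cd3e was the other way round, at 6.05 in LV and 12.11 in PBMCs. LV arrays had median signals of 6.52 to 6.61 and PBMC arrays of 6.97 to 7.01. The tissues therefore appear to have been scaled apart, and apart from this rough check of the tissue labels, levels were not compared between them. In the L-MI ventricle, all 10 macrophage markers rose and 5 of 8 fibroblast markers rose by the criteria for heart tissue. The mean log2 signal of the macrophage list was 8.54 to 9.15 in L-MI rats against 7.97 to 8.26 in sham rats, that of the fibroblast list 9.46 to 10.14 against 8.81 to 9.05, and that of 8 smooth muscle and pericyte markers 9.51 to 9.77 against 9.31 to 9.49, where Tagln and Cnn1 rose. Of these 8 markers Acta2, Pdgfrb and Cspg4 were higher and Kcnj8 was lower by adjusted p, each under 1.3-fold. All L-MI values of Kcnj8 lay below all sham values (difference -0.31, adjusted p = 0.00271), and Rgs5 and Myh11 did not pass. The mean of 6 endothelial markers was 9.80 to 9.87 in L-MI rats against 9.86 to 10.03 in sham rats, and no endothelial marker met both criteria. Tek alone of them was lower by adjusted p (difference -0.17, adjusted p = 0.0393). Among 6 NK cell markers Klrb1a fell. Among 8 T cell markers Cd4 rose (difference 0.76, adjusted p = 3.84e-05), and the others, Cd3d, Cd3e and Cd3g among them, did not pass. The mean of 12 cardiomyocyte markers was 13.05 to 13.12 in L-MI rats against 12.95 to 13.05 in sham rats, but this rested on the stress gene Nppa, which rose by 1.89 on the log2 scale. Without Nppa the mean of the other 11 was 13.06 to 13.14 in L-MI rats against 13.15 to 13.19 in sham rats, and Myh6, Ckm, Ryr2 and Tnni3 were lower by adjusted p, each under 1.3-fold. In whole tissue, fewer cells of a type and less RNA per cell cannot be told apart, and the part of these cell types in the results below was not tested.

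In the LV of L-MI rats compared with sham rats, Grk5 rose 1.36-fold and was the only one of the 9 genes that met both criteria for heart tissue, a fold change of at least 1.3 and an adjusted p of at most 0.05. Of all transcript clusters 3.22% met them (2.08% higher, 1.14% lower), and 9 genes are too few to set a share against that figure. Adra1b was 1.23-fold lower, with an adjusted p under 0.05 and a fold change under 1.3, and it was the only 1 of the 9 whose L-MI and sham values did not overlap (6.97% of all transcript clusters had no overlap, 3.87% in the lower direction). By adjusted p alone 2 of the 9 passed, against 9.48% of all transcript clusters (4.57% higher, 4.91% lower). Adcy6 had a log2 difference of -0.21 that did not pass. Adrb1, the main beta receptor of the heart, and both phosphodiesterases also did not pass. The median of the 9 log2 differences was -0.07, and that of all transcript clusters was -0.01.

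**Figure D1:**
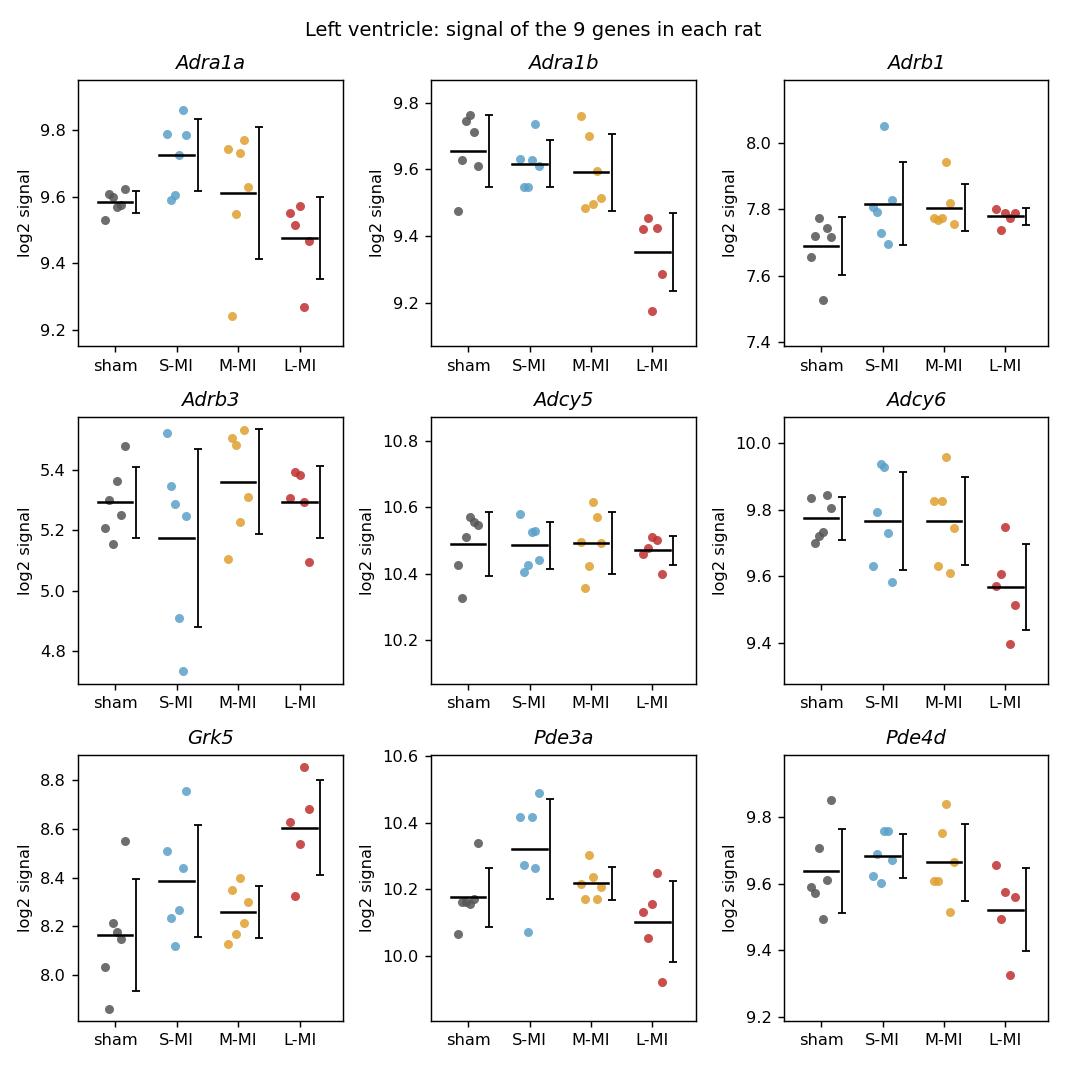
Log2 signal of each of the 9 genes in each LV array, with 1 point per rat, in sham, S-MI, M-MI and L-MI rats. Horizontal lines are group means and bars are the SD, and the vertical scale differs between genes. Grk5 was highest on average in L-MI rats (mean 8.61, against 8.16 in sham rats), and all 5 L-MI values of Adra1b lay below every sham value.

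Among the receptors, Adra1b gave the clearest separation. Its log2 signal was 9.42, 9.45, 9.17, 9.42 and 9.29 in the 5 L-MI ventricles, against a lowest value of 9.48, a median of 9.67 and a highest value of 9.76 in the 6 sham ventricles. Every L-MI value was below every sham value, although the highest L-MI rat and the lowest sham rat were close. The difference was -0.30 on the log2 scale (SE 0.06, 95% interval -0.44 to -0.17, limma adjusted p = 0.00283 over all transcript clusters). A two-sided exact permutation test of this gene alone gave p = 0.00433, where the smallest p that 5 against 6 rats allow is 0.00216. Without L-MI replicate 1 the difference was -0.32 with an adjusted p of 0.00503. Adra1b averaged 9.66 ± 0.11 in sham, 9.62 ± 0.07 in S-MI, 9.59 ± 0.12 in M-MI and 9.35 ± 0.12 in L-MI ventricles (SD, n = 6, 6, 6 and 5), so the groups with the smaller infarcts lay close to sham. The 5 L-MI values also lay below all M-MI values (difference -0.24, SE 0.06, adjusted p = 0.0215) and below all S-MI values (difference -0.27, SE 0.06, adjusted p = 0.0115). Neither of these differences reached 1.3-fold, and that with M-MI lost its adjusted p of at most 0.05 without L-MI replicate 3 (0.0816) or 5 (0.0632) or without M-MI replicate 1 (0.0633) or 3 (0.0579).

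Adra1a, the other alpha-1 receptor of heart muscle, spread more among infarcted rats than among sham rats. Its log2 signal was 9.55, 9.52, 9.57, 9.27 and 9.47 in L-MI ventricles, against 9.53 to 9.62 with a median of 9.59 in sham ventricles. 3 of the 5 L-MI rats were below all sham rats and the groups overlapped (difference -0.11, SE 0.08, adjusted p = 0.467). S-MI ventricles had the highest mean, 9.73 ± 0.11 (SD, n = 6), and all 5 L-MI values lay below all 6 S-MI values, with a difference of -0.25 (SE 0.08, adjusted p = 0.0493), under 1.3-fold. That call was lost in 19 of the 23 fits that left out 1 array, and the adjusted p lay between 0.0109 and 0.16 over all alternatives tried. M-MI ventricles ranged from 9.24 to 9.77, wider than any other group.

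Adrb1 varied little. In L-MI ventricles its log2 signal was 7.80, 7.74, 7.79, 7.77 and 7.79, against 7.53 to 7.77 with a median of 7.72 in sham ventricles. 3 of the 5 L-MI values were above every sham value, and the difference was 0.09 (SE 0.06, 95% interval -0.03 to 0.20, adjusted p = 0.4). The interval stops short of a 1.3-fold change in either direction. The other infarct groups were likewise slightly above sham, by 0.13 in S-MI and 0.12 in M-MI ventricles (SE 0.05 each), with adjusted p-values of 0.726 and 0.707. Adrb3, a beta receptor found mainly in fat, had a log2 signal of 4.73 to 5.53 over the 23 LV arrays, below the median of every array, so a change at this brightness would be hard to see. Its L-MI minus sham difference was 0.00 (SE 0.11, adjusted p = 0.996).

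The cyclases behaved differently from each other in the L-MI ventricle, although the difference between the genes was not tested. Adcy6 had log2 signals of 9.57, 9.61, 9.75, 9.40 and 9.51 in L-MI rats, against 9.70 to 9.84 with a median of 9.77 in sham rats. 4 of the 5 L-MI rats were below all sham rats, and L-MI replicate 3 lay among them. The difference was -0.21 (SE 0.07, 95% interval -0.36 to -0.05, adjusted p = 0.0835), and without L-MI replicate 3 it was -0.25 with an adjusted p of 0.0413, still under 1.3-fold. Adcy6 had the same mean of 9.77 in sham, in S-MI and in M-MI ventricles. Adcy5 stayed within 10.33 to 10.61 on all 23 LV arrays, and its L-MI minus sham difference was -0.02 (SE 0.05, 95% interval -0.13 to 0.09, adjusted p = 0.891).

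Grk5 was the gene that rose. Its log2 signal was 8.63, 8.32, 8.54, 8.86 and 8.68 in L-MI ventricles, against 7.86 to 8.55 with a median of 8.16 in sham ventricles. The groups overlapped through 1 sham rat, replicate 6 at 8.55, which was above 2 of the L-MI rats and well above the other sham rats, the next of which was at 8.21. The difference was 0.44 (SE 0.11, 95% interval 0.21 to 0.68, adjusted p = 0.0131, exact permutation p = 0.0152). Without L-MI replicate 1 it was 0.44 with an adjusted p of 0.0319. Without L-MI replicate 4, the highest, it was 0.38 with an adjusted p of 0.0517, so the call rests in part on that rat. S-MI ventricles averaged 8.39 ± 0.23 and M-MI ventricles 8.26 ± 0.11 (SD, n = 6 each), and neither differed from sham after adjustment (adjusted p = 0.787 and 0.836). L-MI against M-MI gave a difference of 0.35 (SE 0.11, adjusted p = 0.0653), and L-MI against S-MI gave 0.22 (SE 0.11, adjusted p = 0.276), so the step from the smaller infarcts to the large one did not pass by itself.

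The promoters of Adra1b and Grk5, the genes that carry the LV result, are shown with that of Pde3a, which followed Grk5 in PBMCs. Each run is the 250 bases before the RefSeq start of the gene on its own strand, build GRCr8, with every CG dinucleotide in capitals. The Adra1b window is chr10:28814348-28814597 on the minus strand, the Grk5 window chr1:270014086-270014335 on the plus strand and the Pde3a window chr4:175904026-175904275 on the plus strand.
Adra1b: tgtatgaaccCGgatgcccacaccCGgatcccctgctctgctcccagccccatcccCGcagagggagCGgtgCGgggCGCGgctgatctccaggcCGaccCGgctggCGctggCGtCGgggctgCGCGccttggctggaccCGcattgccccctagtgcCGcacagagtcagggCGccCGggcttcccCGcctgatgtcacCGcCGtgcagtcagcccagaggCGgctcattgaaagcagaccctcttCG
Grk5: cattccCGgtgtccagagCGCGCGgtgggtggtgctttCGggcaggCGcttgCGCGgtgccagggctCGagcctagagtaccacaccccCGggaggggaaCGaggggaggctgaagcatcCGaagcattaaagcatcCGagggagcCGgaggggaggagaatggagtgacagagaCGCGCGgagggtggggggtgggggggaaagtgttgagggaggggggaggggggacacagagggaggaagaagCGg
Pde3a: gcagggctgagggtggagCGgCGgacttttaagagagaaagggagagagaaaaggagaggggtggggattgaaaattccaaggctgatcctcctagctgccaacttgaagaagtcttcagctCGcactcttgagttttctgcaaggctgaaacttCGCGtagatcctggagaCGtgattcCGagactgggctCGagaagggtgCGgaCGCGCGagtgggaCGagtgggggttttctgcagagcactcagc
CG dinucleotides numbered 23 in the Adra1b window, 18 in the Grk5 window and 13 in the Pde3a window, against a median of 6 over the 27457 RefSeq promoters of this length. Counts at least as high were held by 13.2%, 21.7% and 31.8% of promoters, in the same order, so such counts are common. The cyclic AMP response element TGACGTCA, the sequence bound by the cyclic AMP-responsive factor Creb1, was searched on both strands and was in none of the 3 windows (1.7% of all promoters hold it). Its shorter form TGACG, which overlaps the full element, was also absent from the 3 windows and is in 19% of all promoters, and among the other windows of the 9 genes that of Adrb1 holds it 1 time, as do the windows of 2 of the 5 Pde4d starts (1 and 2 times). AGATAA, a motif of the GATA factors of blood cells, was in none of the 3 windows and in 10% of all promoters. The reference table held promoters for 6 of the 9 genes.

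The phosphodiesterases Pde3a and Pde4d did not separate L-MI from sham. Pde3a, which degrades cyclic AMP near the sarcoplasmic reticulum, had log2 signals of 10.13, 10.05, 10.15, 10.25 and 9.92 in L-MI ventricles, against 10.07 to 10.34 with a median of 10.16 in sham ventricles (difference -0.07, SE 0.07, adjusted p = 0.592). It was highest on average in S-MI ventricles, at 10.32 ± 0.15, and the L-MI minus S-MI difference was -0.22 (SE 0.07, adjusted p = 0.0468), under 1.3-fold and with overlapping groups. That call too was lost in 19 of the 23 fits that left out 1 array, with adjusted p-values of 0.00705 to 0.171 over all alternatives. Pde4d, whose many isoforms are read here as 1 transcript cluster, had log2 signals of 9.66, 9.49, 9.58, 9.32 and 9.56 in L-MI ventricles, against 9.49 to 9.85 with a median of 9.60 in sham ventricles. The groups overlapped (difference -0.12, SE 0.07, adjusted p = 0.343).

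With smaller infarcts none of the 9 genes passed adjustment. Neither M-MI nor S-MI ventricles had a transcript cluster past the criteria against sham (0% of 29214 in each comparison), while unadjusted p-values of at most 0.05 were held by 7.03% of all transcript clusters in M-MI and 6.33% in S-MI. Among the 9, the unadjusted limma p was at most 0.05 for Adrb1 in M-MI, and for Adrb1, Grk5 and Pde3a in S-MI, with differences of 0.12 to 0.22 that were all upward, and none of them passed adjustment. Unadjusted exact permutation tests gave p of at most 0.05 for 1 of the 9 in M-MI (Adrb1, p = 0.00866), against 8.51% of all transcript clusters. In S-MI the exact permutation p was at most 0.05 for 2 of the 9 (Adra1a, p = 0.0216, and Adrb1, p = 0.0476), against 6.24%. Between infarct sizes, 1 of the 9 passed by adjusted p alone in L-MI against M-MI (Adra1b, against 7.52% of all transcript clusters) and 3 of the 9 in L-MI against S-MI (Adra1a, Adra1b and Pde3a, against 7.73%). None of them met the fold criterion too, which 2.68% and 2.48% of all transcript clusters did. Values did not overlap for 1 of the 9 in L-MI against M-MI (4.87% of all transcript clusters) and for 2 of the 9 in L-MI against S-MI (4.63%). These comparisons share the same 5 L-MI rats. In exact permutation tests of single genes, unadjusted, 5 of the 9 had a p of at most 0.05 in L-MI against sham (Adra1a, Adra1b, Adrb1, Adcy6 and Grk5), and 20.8% of all transcript clusters did.

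Genes that followed Grk5 most closely over the 23 LV arrays were Tmem43, an inner nuclear membrane protein (Pearson's r = 0.89), Thbs1, the matrix glycoprotein thrombospondin 1 (r = 0.86), and Tmem63a, a membrane channel (r = 0.85). These values describe arrays that include the L-MI group, in which Grk5 was high.

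The wider pathway was followed through 104 genes on 10 lists by role, the 9 genes included, of which 98 had a named transcript cluster. In L-MI against sham ventricles 6 of the 98 met both criteria (4 higher, 2 lower), or 6.12%, against 4.38% of the 15310 transcript clusters with 1 gene name. By adjusted p alone 22 of the 98 passed (11 higher, 11 lower), or 22.4%, against 13.3%. The median log2 difference of the 98 was -0.04. The genes that met both criteria were Gnao1, Hcn4, Maoa and Grk5, which rose, and Slc22a3 and Ppp1r1a, which fell. Adcy7, a cyclase on the lists, has no symbol in the annotation used here and stands outside the 98. The transcript cluster that a table of the study names Adcy7 also met both criteria and is described with the cyclases.

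**Figure D2:**
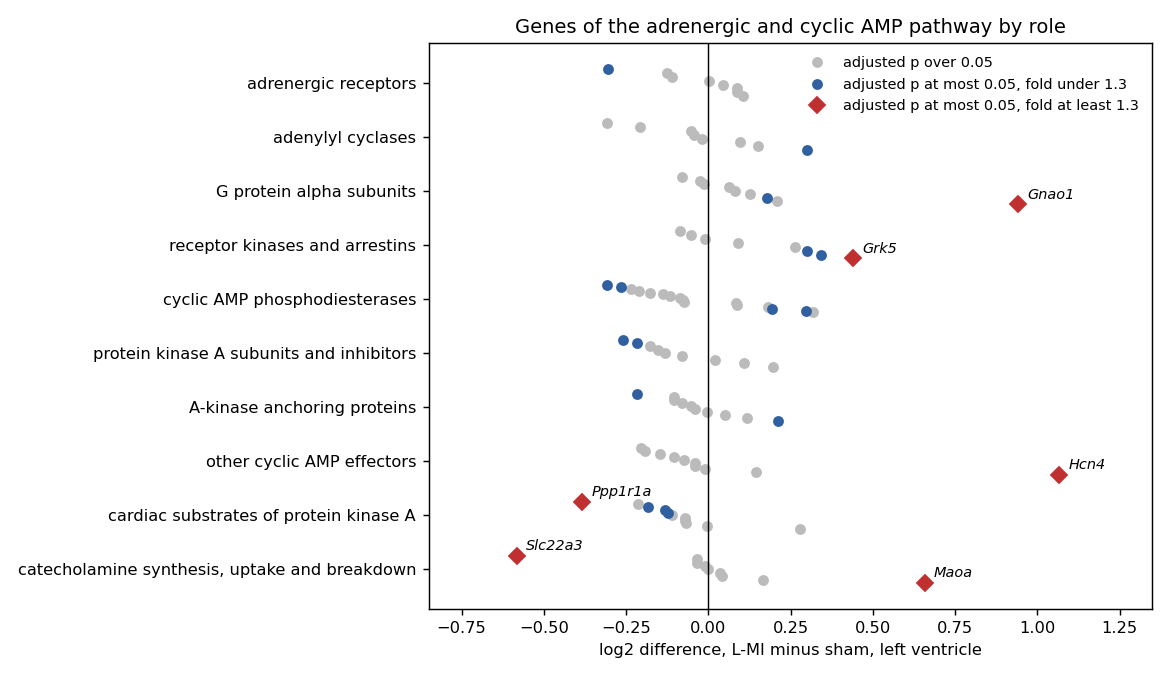
Log2 difference between L-MI and sham ventricles for the 98 measured genes of the pathway lists, 1 point per gene, in rows by role. Red diamonds mark the 6 genes that met both criteria, blue points the genes with an adjusted p of at most 0.05 and a fold change under 1.3, and grey points the rest. Gnao1 at 0.94 and Hcn4 at 1.07 lay farthest to the right, and Slc22a3 at -0.58 farthest to the left.

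Of 8 measured adrenergic receptors, Adra1b alone passed by adjusted p, and none met both criteria. Of the 8 adenylyl cyclases among the 98, Adcy2 passed by adjusted p, with means of 6.08 ± 0.06 in L-MI and 5.78 ± 0.14 in sham ventricles (difference 0.30, SE 0.08, adjusted p = 0.0119), a signal below the array median in both groups. The transcript cluster named Adcy7 by the study averaged 7.77 ± 0.18 in L-MI and 7.20 ± 0.04 in sham ventricles, without overlap, a 1.49-fold rise (difference 0.58, SE 0.07, adjusted p = 2.46e-05). It was also higher in L-MI than in M-MI ventricles (difference 0.53, adjusted p = 5.88e-05) and S-MI ventricles (difference 0.46, adjusted p = 0.000351). Its name comes from a list of transcripts that the study picked as altered on these arrays, so its change is not independent evidence. Of 9 G protein alpha subunits, Gnao1 met both criteria. Gnao1 encodes the alpha subunit of Go, which is grouped with the inhibitory class of G proteins, and cyclase activity was not measured here. Its log2 signal was 10.96, 10.50, 10.93, 11.06 and 11.01 in L-MI ventricles, against 9.86 to 10.08 in sham ventricles, a 1.92-fold rise (difference 0.94, SE 0.12, adjusted p = 1.65e-05). All L-MI values were above all sham, S-MI and M-MI values. Gnas, the stimulatory subunit, had a difference of -0.03 (SE 0.04, adjusted p = 0.753) in its brighter transcript cluster. A dimmer Gnas transcript cluster, at a mean log2 signal of 5.94, gave 0.28 with a wider error (SE 0.17, adjusted p = 0.368).

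Of 8 receptor kinases and arrestins, 3 passed by adjusted p and all of these were higher, as were 6.53% of all named transcript clusters: Grk5, and the beta-arrestins Arrb1 and Arrb2, which are named after their values were seen. Arrb2 averaged 8.05 ± 0.07 in L-MI and 7.71 ± 0.12 in sham ventricles (difference 0.34, SE 0.07, adjusted p = 0.00234), without overlap, and Arrb1 averaged 9.90 ± 0.20 and 9.60 ± 0.08 (difference 0.30, SE 0.08, adjusted p = 0.0147). Both were under 1.3-fold. Grk2, the other major receptor kinase of the heart, had a difference of -0.09 (SE 0.06, adjusted p = 0.477).

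Of 16 phosphodiesterases none met both criteria, and by adjusted p 2 were higher and 2 lower. Pde4a, a cyclic AMP-specific enzyme, averaged 7.70 ± 0.02 in L-MI and 8.01 ± 0.06 in sham ventricles, with no overlap (difference -0.31, SE 0.06, adjusted p = 0.000945). Pde11a had a pair of transcript clusters that disagreed: the brighter, used here, gave a difference of 0.08 (SE 0.13, adjusted p = 0.779), and the dimmer gave 0.72 (SE 0.15, adjusted p = 0.00192), so the size of its change is uncertain. Of 9 protein kinase A subunits and inhibitors, 2 passed by adjusted p and both were lower, among them Pkia, a peptide inhibitor of the kinase (difference -0.22, SE 0.05, adjusted p = 0.00601). Of 10 anchoring proteins, 1 was higher and 1 lower by adjusted p. Akap13 gave a difference of 0.21 (SE 0.06, adjusted p = 0.0173) in its brighter transcript cluster and 0.18 (SE 0.06, adjusted p = 0.0521) in the other.

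Hcn4, a pacemaker channel that opens more readily when cyclic AMP binds it, was the 1 of 10 other cyclic AMP effectors that passed. Its log2 signal was 9.89, 9.77, 9.93, 10.60 and 9.52 in L-MI ventricles, against 8.17 to 9.51 in sham ventricles, a 2.09-fold rise (difference 1.07, SE 0.30, adjusted p = 0.0223). The groups were separated by the narrow gap between 9.52 and 9.51. Hcn4 ranged from 8.26 to 9.59 in S-MI and from 8.62 to 10.19 in M-MI ventricles, and both groups overlapped the L-MI values. Of 11 cardiac substrates of protein kinase A, 4 passed by adjusted p and all were lower, as were 6.75% of all named transcript clusters. Ryr2 and Tnni3, reported above as lower cardiomyocyte markers, are among these 4, so the 2 observations are not independent. Lists of 8 to 16 genes are too short to read such shares closely. Among the 11 substrates Ppp1r1a, whose product inhibits protein phosphatase 1 once protein kinase A has phosphorylated it, was the 1 that met both criteria. It had log2 signals of 7.68, 7.75, 7.74, 7.43 and 7.34 in L-MI ventricles, against 7.87 to 8.12 in sham ventricles, a 1.3-fold fall (difference -0.38, SE 0.08, adjusted p = 0.00194).

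Of 9 measured genes of catecholamine synthesis, uptake and breakdown, 1 rose and 1 fell. Slc22a3, a transporter that takes catecholamines up outside nerve endings, had log2 signals of 6.76, 7.02, 6.53, 6.41 and 6.72 in L-MI ventricles, against 7.03 to 7.48 in sham ventricles (difference -0.58, SE 0.11, adjusted p = 0.00158). Maoa, monoamine oxidase A, which breaks down noradrenaline, had 11.74, 11.70, 12.27, 12.02 and 12.13, against 11.10 to 11.46 (difference 0.66, SE 0.14, adjusted p = 0.00314). In both genes the L-MI and sham values did not overlap. M-MI values, at 6.76 to 7.47 for Slc22a3 and 10.72 to 11.88 for Maoa, overlapped the L-MI values in both genes. Th and Dbh, enzymes of catecholamine synthesis in sympathetic nerves, had differences of -0.01 (SE 0.13) and 0.17 (SE 0.08) and did not pass.

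In PBMCs none of the 9 genes met the criteria used for blood, which were a 1.2-fold change or more together with an unadjusted limma p not above 0.05. Of all transcript clusters 0.924% met them. Exact permutation tests of single genes gave 0 of the 9 with a p of at most 0.05, and 3.91% of all transcript clusters. Adra1b had log2 signals of 5.56, 5.51, 5.57, 5.79 and 5.75 in L-MI cells, against 5.74 to 6.05 with a median of 5.76 in sham cells. Of the L-MI values 3 were below all sham values (difference -0.20, SE 0.08, unadjusted p = 0.0227 by limma, adjusted p = 1, exact permutation p = 0.0519). All 11 values were below the array median. Adra1a and Adrb3 were also below the array median on all 11 arrays, with differences of 0.05 (SE 0.06) and 0.00 (SE 0.07). Adrb1 averaged 7.10 ± 0.10 in L-MI cells (SD, n = 5) and 7.14 ± 0.05 in sham cells (SD, n = 6) (difference -0.04, SE 0.05). Adcy6 (difference 0.00, SE 0.10), Pde4d (0.02, SE 0.05) and Adcy5 (0.15, SE 0.12) overlapped between groups as well. In no gene of the 9 were the PBMC groups free of overlap, which 0.294% of all transcript clusters were.

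**Figure D3:**
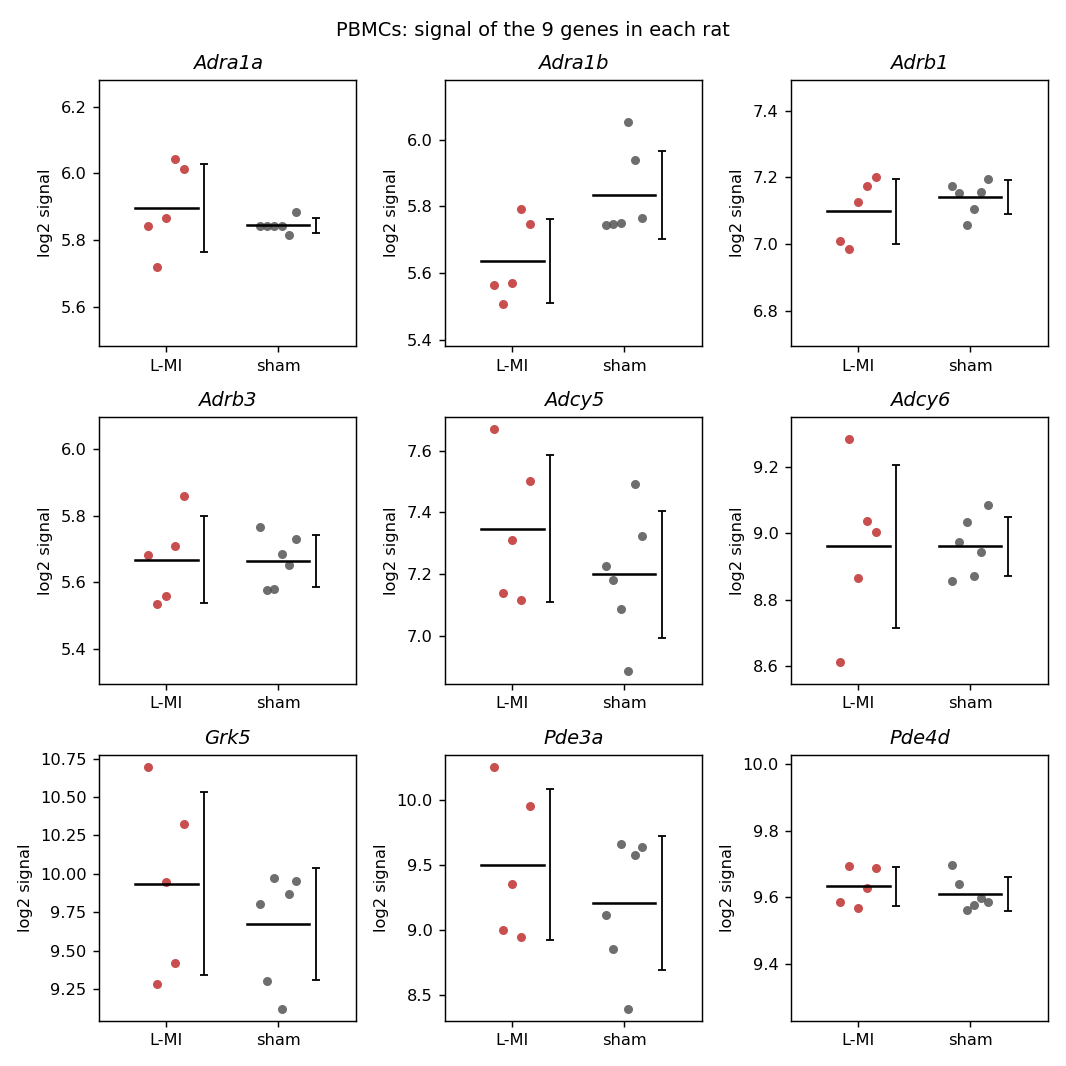
Log2 signal of each of the 9 genes in each PBMC array, with 1 point per rat, in L-MI and sham rats. Horizontal lines are group means and bars are the SD, and the vertical scale differs between genes. Grk5 and Pde3a spread over more than 1 log2 unit within the L-MI group, whereas Pde4d stayed between 9.56 and 9.70 over both groups.

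**Figure D4:**
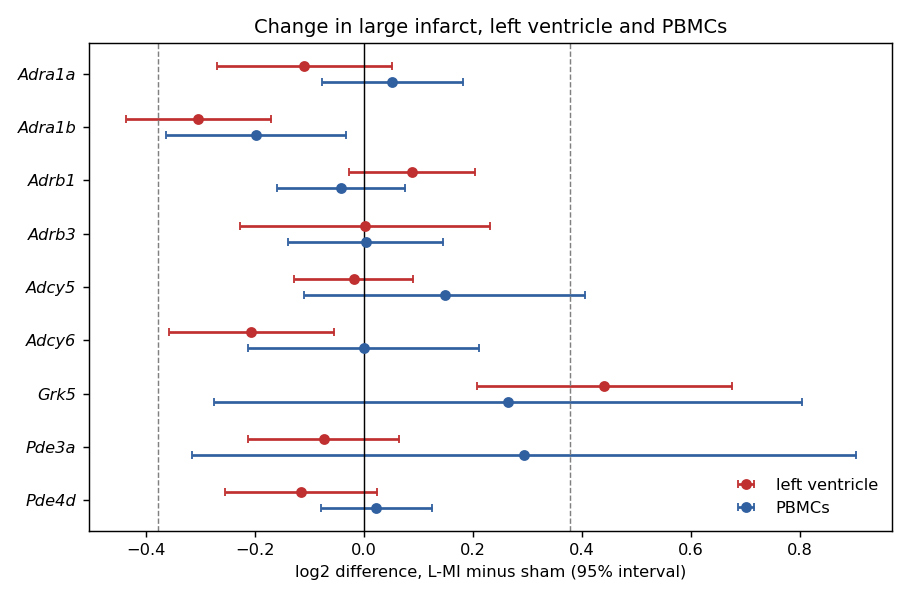
Log2 difference between L-MI and sham rats with its 95% interval for the 9 genes, in the LV and in PBMCs. Dashed lines mark a 1.3-fold change in each direction. The LV interval of Grk5 (0.21 to 0.68) and that of Adra1b (-0.44 to -0.17) lay to one side of 0. The LV interval of Adcy6 and the PBMC interval of Adra1b did so too, but these intervals are not adjusted for the number of genes and neither gene passed adjustment there. The PBMC intervals of Grk5 and Pde3a were the widest.

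Grk5 and Pde3a were the genes that varied most between rats in blood. Grk5 had log2 signals of 10.70, 9.28, 9.95, 9.42 and 10.33 in L-MI cells, against 9.12 to 9.97 with a median of 9.84 in sham cells (difference 0.26, SE 0.25, 95% interval -0.28 to 0.80, exact permutation p = 0.39). Pde3a had 10.26, 9.01, 9.36, 8.95 and 9.95 in L-MI cells, against 8.40 to 9.66 with a median of 9.35 in sham cells (difference 0.29, SE 0.28, 95% interval -0.32 to 0.90, exact permutation p = 0.394). These intervals include both no change and a change larger than that of Grk5 in the LV. The same L-MI rats, replicates 1 and 5, were highest for both genes, and the same sham rats, replicates 4 and 2, were lowest. Without L-MI replicate 1, the difference was 0.07 for Grk5 and 0.11 for Pde3a.

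Over the 11 PBMC arrays Grk5 and Pde3a moved together (Pearson's r = 0.96, Spearman's rho = 0.96, permutation p = 1e-05 for each, with 100000 permutations, adjusted p = 0.00153 and 0.00204 over 306 relations computed). The correlation was 0.93 without the 2 arrays farthest from the median of Grk5. Within the 6 sham arrays r was 0.96. Both genes followed the mean of 4 platelet genes, Pf4, Ppbp, Gp9 and Itgb3. For Grk5, r was 0.93 and rho 0.95 (permutation p = 2e-05 for each, adjusted p = 0.00204 for each). For Pde3a, r was 0.96 and rho 0.95 (permutation p = 1e-05 and 2e-05, adjusted p = 0.00153 and 0.00204). Without the 2 arrays farthest from the median of the first gene these correlations were 0.93 and 0.94, and within the 6 sham arrays they were 0.99 and 0.98. The L-MI group has 5 arrays, too few for a correlation by itself. The platelet mean lay at 11.9 to 12.7 in L-MI and 11.6 to 12.6 in sham cells. Pde4d did not follow it (r = -0.10, permutation p = 0.767). No other relation among the 9 genes, or between them and the means of 13 marker lists, passed adjustment for both coefficients in either tissue, where LV values had their group means removed. The part of platelet RNA in the PBMC levels of Grk5 and Pde3a was not tested further.

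**Figure D5:**
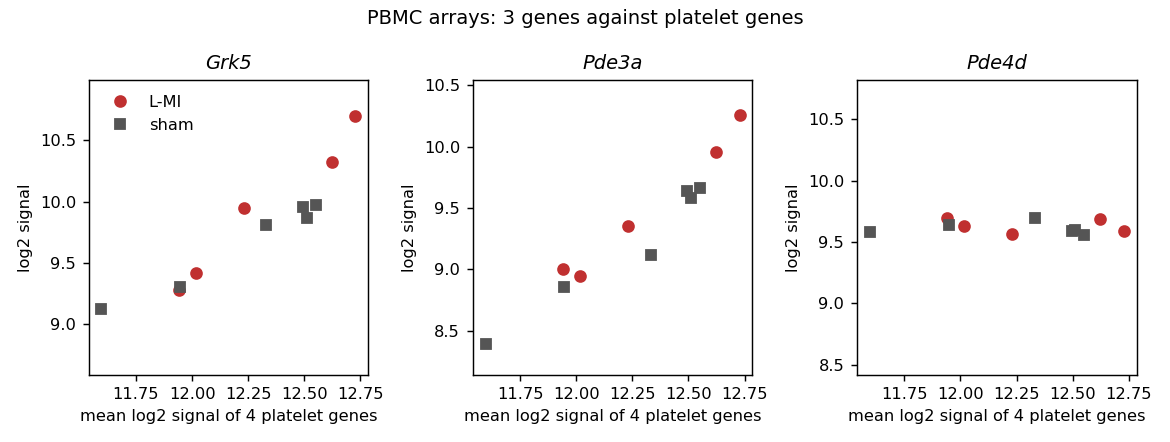
Log2 signal of Grk5, Pde3a and Pde4d in each PBMC array against the mean log2 signal of 4 platelet genes, with circles for L-MI and squares for sham rats. Grk5 and Pde3a climb with the platelet genes in both groups (r = 0.93 and 0.96 over 11 arrays), and Pde4d stays level (r = -0.10).

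The change with a large infarct was compared directly between LV and PBMCs by an interaction term. None of the 9 genes differed between the tissues after adjustment, as 2.55% of all transcript clusters did. For Grk5 the LV change minus the PBMC change was 0.18 (SE 0.29, adjusted p = 0.861), and for Adra1b it was -0.11 (SE 0.10, 95% interval -0.32 to 0.11, adjusted p = 0.735). For Pde3a it was -0.37 (SE 0.31, adjusted p = 0.68). None of the 98 pathway genes met the criteria for blood.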

How the data were processed

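RNA from LV tissue or PBMCs was measured on 34 arrays of the Affymetrix Rat Gene 1.0 ST type. The authors normalized the arrays by RMA and deposited log2 signals of 29214 transcript clusters, and used Partek (versions are not given in the sources used here). RMA corrects background and equalises the distributions of arrays, so a change shared by most genes would not be seen. No probe detection values were used here, and the number of rats limits the precision.

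The deposited log2 values were fitted with limma 3.58.1 in R 4.3.3 (lmFit and eBayes), with Benjamini-Hochberg adjustment over all transcript clusters. There was 1 model of the 23 LV arrays and 1 of the 11 PBMC arrays. The interaction term came from a further model of the 22 sham and L-MI arrays of both tissues. That model used 1 estimate of spread per transcript cluster over both tissues and treated all arrays as independent. The thresholds follow the methods of the study. Exact permutation tests used all splits of the arrays of the groups compared, which number 462 for 5 against 6 arrays. Comparisons of 6 against 6 arrays used all of their own splits. The fits were also run on simulated data with independent normal noise, a setting without effects shared by the genes of an array or changes in cell types. No result above rests on that run. Gene names came from the platform annotation: 15310 transcript clusters had 1 symbol, 323 several and 13581 none, and where a gene had several the brightest in a tissue was used. Adcy7 was named through a table of the study. From each pathway list the text names the genes called in L-MI against sham LV, or the 1 with the smallest p. Other names were chosen after their values were seen. The 9 genes and all lists were chosen with earlier results of these data known. Alternatives covered moderation, samples in the fit, variance trend, array weights, a filter on dim features, scaling, thresholds, a replicate block and leaving out each array. Replicates were separate rats, and which LV and PBMC arrays share a rat is not labelled. Figures were drawn in Python 3.11.15 with matplotlib 3.10.9.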

Additional observations from a re-analysis of the deposited data

Results flagged for a closer look

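In PBMCs of sham rats, Adra1a was highest in replicate 6, at 5.88, and the next value was 5.84. This gap is large for a group whose other values lie so close together, and it is 0.04 log2 units in size. Sham replicates 1, 2, 3 and 4 shared the identical value of 5.841, and Adra1a was below the array median on every PBMC array. The gap therefore arose at a dim and tied signal. In M-MI ventricles, Adrb1 was highest in replicate 4, at 7.94, and the next value was 7.82. Such gaps were looked for in 54 sets of values, each of 1 gene in 1 group of arrays, so the sets share arrays. Chance alone gives such a gap in about 1 in 20 sets, so a few among 54 would arise by chance.

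For 6 of the 98 genes of the wider pathway (6.12%, against 3.59% of all named transcript clusters) the change with a large infarct differed between LV and PBMCs in the limma interaction test over all transcript clusters. The LV change minus the PBMC change was 1.09 for Gnao1 (adjusted p = 0.00103), 1.09 for Hcn4 (adjusted p = 0.0202), 0.36 for Adcy2 (adjusted p = 0.0268), -0.54 for Slc22a3 (adjusted p = 0.018), -0.36 for Pde1b (adjusted p = 0.00287) and -0.32 for Pde4a (adjusted p = 0.0171). The transcript cluster that the study names Adcy7, outside the 98, gave 0.57 (adjusted p = 0.00124), with a PBMC difference of 0.00. The PBMC differences of the 6 genes lay between -0.15 (Gnao1) and 0.09 (Pde1b). In PBMCs Gnao1 (6.02 to 6.91) and Slc22a3 (5.37 to 5.63) lay below the array medians of 6.97 to 7.01. Hcn4 (6.80 to 7.03) lay near those medians. A PBMC change at this brightness would be hard to see, so for these genes the interaction term may only restate the LV change.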

How the results depend on the processing

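No result of the 9 genes changed sign once called. In L-MI against sham LV, 1 gene met the criteria, and 2 did with no fold threshold and 2 with a fold of at least 1.2 (Adra1b and Grk5 in both). Leaving out each array in turn gave 0 to 1, with 0 only without L-MI replicate 4. L-MI against M-MI gave 0, but 1 with no fold threshold (Adra1b), 1 with the replicate number as a block (Grk5, difference 0.40, adjusted p = 0.0121) and 0 to 1 when arrays were left out, with 1 only without L-MI replicate 2 (Grk5, 0.42, adjusted p = 0.0246). L-MI against S-MI gave 0, and 3 with no fold threshold. PBMCs gave 0, but 1 with no fold threshold (Adra1b) and 1 with the replicate block (Grk5, difference 0.32). The exact permutation test in PBMCs gave 0 genes, but 1 with medians and 0 to 1 when arrays were left out (Adra1b, without L-MI replicate 4 or 5), and in LV it gave 5 genes, 4 with medians and 4 to 5 when arrays were left out. Same-numbered arrays did not deviate together (r from -0.26 to 0.00 between L-MI and sham LV and from -0.05 to 0.13 in PBMCs). Over all pairs of groups checked the highest r was 0.26, between S-MI and sham LV, where 2 of 6 pairs were over 0.1, and in no pair of groups were all of them, so the numbers were not taken to pair arrays. The block changed no other count. A mean over several rows of a gene was not run, since each of the 9 genes has 1 row. The dim signal of Adrb3 in LV, and of Adra1a, Adra1b and Adrb3 in PBMCs, limits what can be seen of these genes there.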
